A study of Homo sapiens with 21 samples.

Results

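Long intergenic non-coding RNAs that carry a numbered LINC symbol were followed through a short pulse of the transcription factor GSX2 in human neural progenitors. The members were all features named LINC and a number whose mean was at least 50 normalized counts over the 21 libraries. The members were thus chosen by their measured level, and this took 113 of the 360 LINC-named features and of the 19874 features in the normalized table. It used levels averaged over all libraries, so the levels that follow are descriptions. The changes between groups were not used directly, but a member can reach the minimum through the groups where it is high. LINC00645, for example, had a mean of 53.2, with 323 reads in the 24 h NoDox libraries and 3 in the 24 h Dox libraries. Just inside the minimum were LINC00621 at 52.1, LINC01238 at 51.2 and LINC01503 at 50 normalized counts, and just outside were LINC00680 at 49.3, LINC03049 at 47.5 and LINC00648 at 46.7.

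All libraries came from 1 human embryonic stem cell line, H9, that carries wild-type GSX2 with a 2xFLAG tag behind the TRE3G promoter, which doxycycline switches on; every group, the uninduced ones included, has this genotype. Differentiation aimed at an LGE-like state, named for the lateral ganglionic eminence, where neurons of the striatum are born, first with LDN193189, SB431542 and XAV939, then with LDN193189 and SB431542, and last with IWP2 and Activin A. Libraries were made from poly-A RNA at day 10 and, 12, 24 and 48 h later, from cultures given 100 ng/mL doxycycline for the first 12 h (Dox) or none (NoDox), with 3 libraries in each of the 7 groups. The 24 h and 48 h Dox libraries therefore follow the withdrawal of the drug. No group received doxycycline without the transgene, so drug and transgene cannot be told apart. The labels do not say whether replicates were separate cultures, and p-values then measure only the spread between these samples, which may be technical.

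Long intergenic non-coding RNAs are transcribed by RNA polymerase II outside protein-coding genes and are mostly spliced and polyadenylated. Many lie beside genes for developmental transcription factors and are made in the same tissues as those genes, some are precursors of microRNAs, and for most no function is known. GSX2 is a homeodomain protein of the ventral forebrain that binds sites with a TAAT core and sets the border between the LGE and the cortical (pallial) field.

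Several members contain microRNA genes on their own strand. LINC00461 contains MIR9-2, 1 of the genes for miR-9, an abundant regulator of neural progenitors. LINC00472 contains MIR30A and MIR30C2. Both host RNAs were lower at 12 h of doxycycline (below), so mature products of these genes are shown. They are from RefSeq (GRCh38.p14), 5′ to 3′ with the seed (bases 2 to 8) in capitals. The other products of MIR30A and MIR30C2, hsa-miR-30a-3p and hsa-miR-30c-2-3p, are left out. The mature microRNAs themselves were not measured in these poly-A libraries.
hsa-miR-9-5p: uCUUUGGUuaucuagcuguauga
hsa-miR-9-3p: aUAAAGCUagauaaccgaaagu
hsa-miR-30a-5p: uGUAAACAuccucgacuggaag
hsa-miR-30c-5p: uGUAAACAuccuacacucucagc
miR-30a-5p and miR-30c-5p share the seed GUAAACA, and the miR-9 arms have the seeds CUUUGGU and UAAAGCU.

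Promoter windows are shown for the member with the largest fall at 12 h (LINC02944), and for the members with a called Dox effect whose window holds the homeodomain core TAATTA and which rose at 24 h (LINC00683) or at 48 h (LINC00938 and LINC01278). Each runs from 250 bases before to 50 bases after the RefSeq start (GRCh38.p14, 300 bases, 5′ to 3′ along the gene), in lower case with any TAATTA in capitals. The RefSeq start need not be that of the span in the count table. Their positions are chr10:118241255-118241554, plus strand for LINC02944, chr18:76619527-76619826, plus strand for LINC00683, chr12:45727872-45728171, minus strand for LINC00938 and chrX:63561046-63561345, minus strand for LINC01278.
LINC02944: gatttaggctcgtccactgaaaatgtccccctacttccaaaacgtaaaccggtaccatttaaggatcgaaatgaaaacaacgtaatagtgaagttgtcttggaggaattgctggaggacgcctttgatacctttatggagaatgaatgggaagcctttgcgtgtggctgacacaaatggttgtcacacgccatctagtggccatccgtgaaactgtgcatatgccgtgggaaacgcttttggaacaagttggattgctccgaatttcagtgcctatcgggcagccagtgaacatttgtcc
LINC00683: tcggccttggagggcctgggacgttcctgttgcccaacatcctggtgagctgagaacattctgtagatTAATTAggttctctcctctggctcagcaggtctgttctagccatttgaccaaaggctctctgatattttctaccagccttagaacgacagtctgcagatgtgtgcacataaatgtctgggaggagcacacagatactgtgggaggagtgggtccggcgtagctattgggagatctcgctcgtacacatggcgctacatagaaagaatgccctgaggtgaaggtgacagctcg
LINC00938: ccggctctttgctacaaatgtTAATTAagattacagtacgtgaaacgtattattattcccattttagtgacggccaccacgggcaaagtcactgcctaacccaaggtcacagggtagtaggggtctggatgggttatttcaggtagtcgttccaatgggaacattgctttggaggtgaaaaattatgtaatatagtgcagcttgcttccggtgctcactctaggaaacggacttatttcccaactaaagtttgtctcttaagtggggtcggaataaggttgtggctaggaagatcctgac
LINC01278: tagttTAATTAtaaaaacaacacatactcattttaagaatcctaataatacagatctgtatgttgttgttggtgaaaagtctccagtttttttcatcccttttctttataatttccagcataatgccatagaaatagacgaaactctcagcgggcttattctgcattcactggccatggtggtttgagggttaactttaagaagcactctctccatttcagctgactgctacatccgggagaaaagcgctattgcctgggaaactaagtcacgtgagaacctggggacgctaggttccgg
Windows were found for 77 of the 113 members, 94 windows in all. TAATTA, which is its own reverse complement, was in 5 of the 94 (5.32%), against 1699 of all 35116 windows of this length (4.84%). The 5 belong to LINC00683, LINC00910, LINC00938, LINC01278 and LINC01355. The last was called lower at 24 h and 48 h and LINC00910 lower at 48 h, while LINC00938 and LINC01278 were also called lower at 12 h. By the call at 12 h, the motif was in 0 of 13 windows of higher members, 2 of 25 of lower and 3 of 56 of uncalled ones. Whether it goes with a direction was not tested. A match is a stretch of letters, not a bound site, and the window of LINC02944 holds none.

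Library depth ran from 14439089 to 33842591 counts, so a feature with 0 reads may lie at up to 3 counts per library, for counting error only. The transgene served as the check of the labels: its mean was 0.135 to 0.309 CPM (depth-scaled counts, with TMM factors) in the 4 groups without doxycycline, 876 ± 114 CPM in the 12 h Dox group, 19.5 ± 5.80 at 24 h and 0.934 ± 0.05 at 48 h (SD, n = 3). No pair of replicates was a copy of another: the chi-square over features, divided by its degrees of freedom, was 1.87 or more for every pair. It was highest for the 12 h Dox replicate 3 (28.0 and 17.5 against the other libraries of its group) and for day 10 replicate 1 (11.5 and 15.6). Summed markers of forebrain progenitors (8 of 8 genes, none at 0) were 6237 to 9092 CPM in the uninduced libraries. Markers of mesoderm and endoderm were at 0.641 to 2.54 CPM in all libraries, with 2 or 3 of these markers at 0 in each group and FOXA2 at 0 in all 7. Other lists were not near 0 in the uninduced libraries. The neural crest sum was 510 to 907 CPM, the endothelial and mesenchymal sum 380 to 1010 and the epithelial sum 277 to 458. The pluripotent stem cell sum was 262 to 336 CPM, with TDGF1 at 0, and the LGE progenitor sum 346 to 434. Which cells these sums stem from was not tested.

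The LINC RNAs were a small and uneven share of the transcriptome. Together they took 0.149% of the counts in the library where they were lowest and 0.219% where they were highest. LINC01551 and LINC00461 alone held 27.2% of the members' normalized counts, and the 5 most abundant members, with LINC00632, LINC02210 and LINC00205, held 38.9%. The median member had a mean of 116 normalized counts. Per kb of feature length, LINC01551 was highest with a mean of 25.7 CPM per kb over all libraries, followed by LINC00404 with 16.3, LINC01089 with 13.7, LINC02972 with 12.1, LINC01833 with 11.6 and LINC00461 with 11.5. LINC01089 shares 57.9% of its length with a feature on the other strand, so its level is uncertain.

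Levels varied both between and within groups. The highest group mean was at least 2 times the lowest for 71 of the 113 members, with a median ratio of 2.35. The spread between replicates was a coefficient of variation of 10.6% at the median. LINC00667 was the steadiest, with a ratio of 1.19. LINC00645 was the least steady, with a ratio of 155 that rests on 3 reads in its lowest group.

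At 12 h of GSX2 induction LINC01551 and LINC00461, the most abundant members, dropped several-fold, and LINC02944 was nearly lost. In all, 32 of 113 members were lower and 13 higher in Dox than in NoDox (edgeR quasi-likelihood test, Benjamini-Hochberg adjusted p below 0.05 over all 19655 features tested, as for every call below). Over all features tested 39.7% were called, 19.9% lower and 19.8% higher. Among the 14351 features with the same minimum mean, 24.1% were lower and 20.3% higher. The members' shares were 28.3% lower and 11.5% higher, and their median log2 fold change was -0.05 against 0.01 for all features. In bulk RNA, fewer cells of a type and less RNA per cell cannot be told apart.

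LINC01551 (chromosome 14, 28765640 to 28823817, plus strand) was the most abundant member. It shares stretches of up to 325 nearly identical bases, of a length of 11239, with 23 other genes, so its level is somewhat uncertain. Its level was 398, 376 and 373 CPM in the NoDox libraries and 75.8, 73.6 and 81.7 CPM in the Dox libraries. Every Dox library was far under every NoDox library, and day 10 libraries lay between at 297, 290.3 and 299.7 CPM. The log2 fold change was -2.31 ± 0.06 (approximate SE, n = 3 against 3; adjusted p = 1.49e-22).

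LINC00461 (chromosome 5, 88507546 to 88691057, minus strand), the host of MIR9-2, lies 26.1 kb from MEF2C, the gene of a neuronal transcription factor. It had 249.6, 199 and 208 CPM without and 64.7, 46.2 and 44.4 CPM with doxycycline, and the groups did not overlap. Its log2 fold change was -2.07 ± 0.14 (adjusted p = 2.84e-10), while that of MEF2C, at 3.46 ± 0.628 CPM in NoDox, was -0.83 ± 0.17 (adjusted p = 0.000286).

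LINC02944 (chromosome 10, 118241468 to 118267710, plus strand) showed the largest fall. The NoDox libraries had 6.78, 9.96 and 7.61 CPM and the Dox libraries 0.0358, 0.115 and 0.102 CPM. In reads, these Dox libraries held 1, 3 and 2, 6 in all against 524 in the NoDox libraries. The level in NoDox was 100 times that in Dox, with a 95% exact interval of 45.6 to 274 that covers counting error only, and the fitted log2 fold change was -6.54 ± 0.33 (adjusted p = 8.35e-16). Its nearest tested coding gene, FAM204A, 30.2 kb away, changed by -0.28 ± 0.07. EMX2, the gene of a homeodomain factor of the pallium, lies 692 kb away and was looked at after the values were seen. It went from 247 ± 20.1 to 9.54 ± 0.764 CPM, and changed by -4.70 ± 0.11 in log2 (adjusted p = 6.75e-22).

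LINC01159 and LINC01102 flank POU3F3, the gene of a neural POU-domain factor, with gaps of 6.83 kb and 321 kb. LINC01159 fell from 16.8, 18.1 and 15.2 to 2.97, 2.16 and 2.04 CPM, with no overlap (-2.78 ± 0.13, adjusted p = 1.63e-16). LINC01102 fell from 6.01, 6.63 and 7.47 to 3.00, 2.77 and 3.16 CPM, again with no overlap (-1.18 ± 0.18, adjusted p = 4.11e-06). POU3F3 fell as well, with a log2 fold change of -1.54 ± 0.08 (adjusted p = 8.55e-16).

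Further members with large falls were less abundant. LINC00645, in a gene-poor stretch of chromosome 14, changed by -2.17 ± 0.39 (adjusted p = 4.12e-05), from 1.38, 1.23 and 1.49 to 0.179, 0.500 and 0.204 CPM. LINC03061 had 5.50, 5.80 and 5.41 CPM in NoDox and 0.715, 1.62 and 2.04 CPM in Dox (-1.99 ± 0.28, adjusted p = 3.37e-06). It shares 392 nearly identical bases with SLC44A3-AS1, so its level is uncertain. LINC02609, beside BARHL2, the gene of a homeodomain factor of neural progenitors, had a log2 fold change of -1.96 ± 0.29 (adjusted p = 5.37e-06). LINC00472, the miR-30 host, fell from 14.3, 16.7 and 15.1 to 5.79, 6.39 and 7.24 CPM (-1.26 ± 0.12, adjusted p = 4.06e-10).

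Rises at 12 h were smaller, none reaching a log2 fold change of 1. LINC00623 had 2.29, 1.33 and 2.37 CPM in NoDox and 3.51, 3.08 and 4.84 CPM in Dox (0.91 ± 0.22, adjusted p = 0.00117). LINC00621 had 2.50, 2.38 and 1.76 against 3.61, 4.27 and 3.72 CPM (0.81 ± 0.18, adjusted p = 0.000684). In both the Dox libraries were all above the NoDox libraries. LINC00869 (0.69 ± 0.18) and LINC01806 (0.66 ± 0.19) passed in every alternative analysis, whereas LINC00954 (0.51 ± 0.19, adjusted p = 0.0318) and LINC01234 (0.49 ± 0.19, adjusted p = 0.0401) did not. LINC00954 lost the call without NoDox replicate 2 or 3 or Dox replicate 1 or 2 (adjusted p = 0.0599 to 0.141), and LINC01234 without NoDox replicate 1 or 3 or Dox replicate 2 or 3 (adjusted p = 0.0792 to 0.14). LINC00623 shares 737 nearly identical bases with another gene and LINC00869 shares 21% of its length with FAM91A2P, so both levels are uncertain.

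The higher calls at 12 h depended on scaling. With library totals in place of TMM, the median of all features rose from 0.01 to 0.19 and that of the members from -0.05 to 0.12, which turns its sign, and 32 members were higher and 25 lower. Over all features that scaling gave 7340 higher and 2213 lower, against 3898 and 3912. Without 12 h Dox replicate 2 the higher calls numbered 8, and without replicate 3, the library that stood apart, there were 14 higher and 32 lower. Markers of other states moved at the same time. The dorsal pallial sum (6 genes, none at 0) was 346 to 422 CPM in NoDox and 14.2 to 16.9 in Dox, the forebrain progenitor sum 6798 to 6885 against 2682 to 2967, the postmitotic neuron sum (6 genes, none at 0) 1531 to 1763 against 836 to 1009, and the neural crest sum (5 genes, none at 0) 793 to 841 against 351 to 414. The LGE progenitor sum was 351 to 385 against 407 to 410, with GSX1 at 0 in Dox. The feature of the induced gene, GSX2, alone had a mean of 8.62 CPM in NoDox and 288 CPM in Dox. The LGE sum counts GSX2, and the rise of GSX2 was larger than that of the sum. The sum of the other LGE markers was therefore lower in Dox than in NoDox. It does not show which of them fell. The part of these markers in the result was not tested.

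**Figure D1:**
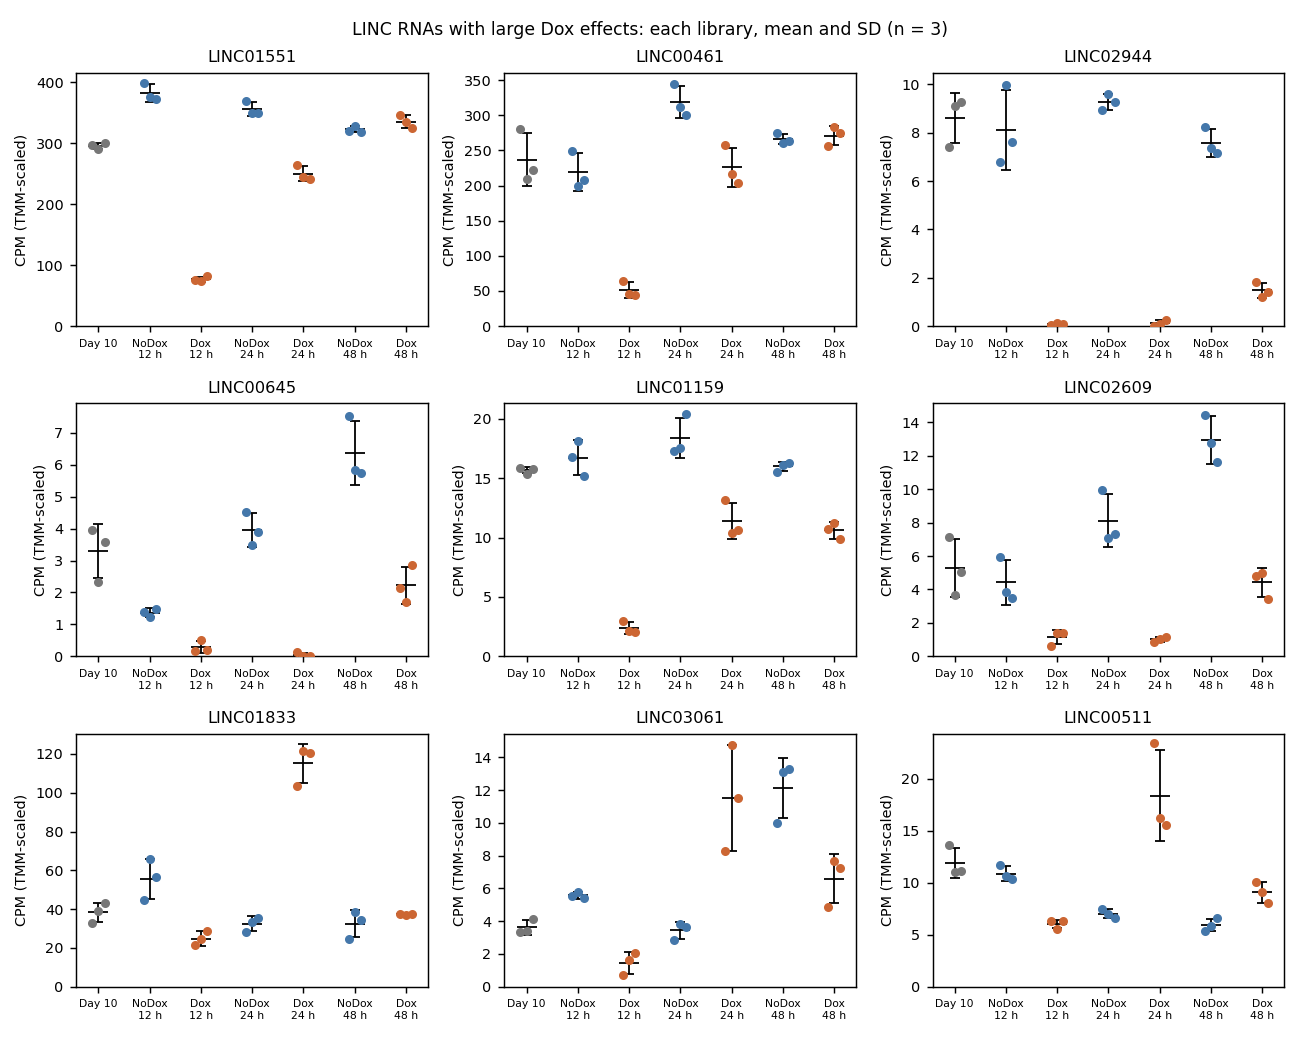
TMM-scaled CPM (y axis, linear from 0) in each of the 21 libraries for 9 LINC RNAs with large Dox effects, by group on the x axis; points are libraries (grey day 10, blue NoDox, orange Dox), horizontal bars the mean and vertical bars the SD (n = 3). LINC01551 and LINC00461 are lowest in the 12 h Dox group, LINC02944 stays low to 48 h, and LINC01833, LINC03061 and LINC00511 are low in Dox at 12 h and above NoDox at 24 h.

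At 24 h, 12 h after doxycycline was withdrawn, members called lower at 12 h had divided. LINC01551 and LINC00461 were closer to the NoDox level than at 12 h, LINC02944, LINC00645 and LINC02609 were still at or under 1.13 CPM in every Dox library, and another set had crossed to above the NoDox level. Of 113 members, 19 were higher and 24 lower, 38.1% in all. Over all features tested 33.9% were called, 17% higher and 16.9% lower. Over those with the same minimum mean it was 39.3% (19.5% higher and 19.8% lower), near the members' share. The members' median log2 fold change was -0.08.

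LINC01551 and LINC00461 were still lower, by much less than at 12 h. LINC01551 had 369, 350.1 and 349 CPM in NoDox and 264, 244 and 242 CPM in Dox, which differ by -0.51 ± 0.06 in log2 (adjusted p = 2.39e-08). LINC00461 had 345, 312 and 301 against 257, 217 and 204 CPM (-0.50 ± 0.13, adjusted p = 0.00484). The groups did not overlap for either RNA.

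LINC00645 (chromosome 14, 27612577 to 27639636, plus strand) was the lowest relative to its control. NoDox libraries had 4.52, 3.48 and 3.88 CPM and Dox libraries 0.124, 0 and 0 CPM, which is 3 reads in all against 323. The NoDox level was 93.3 times the Dox level, with a 95% exact interval of 31.6 to 455 for counting error only, and the fitted log2 fold change of -6.35 depends on the fit's prior count. Its nearest tested coding gene, NOVA1, is 1010 kb away.

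LINC02944 had 8.95, 9.61 and 9.27 CPM in NoDox and 0, 0.0870 and 0.271 CPM in Dox, 8 reads against 739. The NoDox level was 80.1 times the Dox level (95% exact interval 40.4 to 186). LINC02609 had 9.97, 7.09 and 7.31 against 0.865, 1.04 and 1.13 CPM (-3.01 ± 0.27, adjusted p = 3.03e-09), and BARHL2, 51.8 kb away, had 255 reads in the NoDox and 5 in the Dox libraries. LINC01198 fell to 16.9, 13.2 and 12.3 from 51.8, 53.8 and 53.1 CPM (-1.90 ± 0.09, adjusted p = 7.39e-16). It shares 558 nearly identical bases with another gene, which leaves its level uncertain. All 4 RNAs had Dox libraries wholly below NoDox.

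LINC01833 (chromosome 2, 44921077 to 44939199, minus strand) starts 2.5 kb from the start of SIX3, a homeobox gene of the anterior forebrain and eye field, and is transcribed away from it. At 12 h it had 44.9, 65.6 and 56.6 CPM in NoDox and 21.2, 24.4 and 28.7 CPM in Dox, a change of -1.18 ± 0.16 in log2 (adjusted p = 7.31e-06). At 24 h it had 28.2, 33.4 and 35.5 CPM in NoDox and 104, 122 and 120.3 CPM in Dox, a rise of 1.84 ± 0.15 (adjusted p = 1.94e-08). The libraries lay wholly apart at both times, in opposite directions. SIX3 went the same ways, by -1.13 ± 0.08 at 12 h and 0.89 ± 0.08 at 24 h.

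LINC03061 and LINC00511 crossed in the same manner. LINC03061 had 2.83, 3.82 and 3.65 CPM in NoDox and 8.28, 14.7 and 11.5 CPM in Dox at 24 h (1.76 ± 0.22, adjusted p = 1.00e-06). LINC00511, an RNA studied mostly in tumours, had 7.49, 6.97 and 6.57 against 23.4, 16.2 and 15.5 CPM (1.39 ± 0.13, adjusted p = 1.34e-09), after -0.85 ± 0.14 at 12 h. For both the Dox libraries were above all NoDox libraries at 24 h and below them at 12 h. In all, 7 members (6.19%, against 3.87% of all features tested and 5.11% of those with the same minimum mean) were called lower at 12 h and higher at 24 h, the others being LINC00404, LINC00665, LINC00963 and LINC02021. The calls of LINC02021 at both times held in 8 of 13 alternatives, and the 12 h call of LINC00963 held in 11, its value being -0.05 with library totals.

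The rises at 24 h outside these 7 numbered 12. LINC00623 (0.91 ± 0.22 at 12 h and 0.77 ± 0.21 at 24 h), LINC00869 (0.69 ± 0.18 and 0.47 ± 0.16) and LINC01963 (0.36 ± 0.12 and 0.36 ± 0.13) had already been called higher at 12 h. The calls of LINC00623 held in 13 of 13 alternatives at both times, whereas at 24 h those of LINC00869 and LINC01963 held in 9 and 8. LINC00869 lost it without NoDox replicate 1 or 3 or Dox replicate 2 or 3 (adjusted p = 0.0563 to 0.0983), and LINC01963 without NoDox replicate 1 or 2 or Dox replicate 2 or 3 (0.112 to 0.178). The 12 h call of LINC01963 was lost without NoDox replicate 3 (0.077) or Dox replicate 1 (0.0608). LINC00683, not called at 12 h, had 2.62, 2.77 and 2.37 CPM in NoDox and 5.69, 6.18 and 5.65 CPM in Dox (1.17 ± 0.21, adjusted p = 5.18e-05). LINC01503 (1.07 ± 0.23) and LINC00235 (0.91 ± 0.21), also not called at 12 h, rose as well. LINC02798 was the member with the largest fall at 24 h that was not called at 12 h: 2.65, 2.90 and 3.38 CPM in NoDox and 0.577, 1.00 and 0.633 CPM in Dox (-2.0 ± 0.23, adjusted p = 6.30e-08). It shares 404 nearly identical bases with LINC01632, so its level is uncertain. LINC01896, 0.743 kb from the start of SALL3, a zinc-finger gene, changed by -1.24 ± 0.13, and SALL3 by -0.93 ± 0.11. At 24 h the endothelial and mesenchymal marker sum (6 genes, none at 0) was 403 to 463 CPM in NoDox and 921 to 1350 in Dox, and the epithelial sum (6 genes, none at 0) 277 to 307 against 437 to 563. The dorsal pallial sum was 463 to 506 against 34.3 to 52.5, and the part of these markers in the result was not tested.

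**Figure D2:**
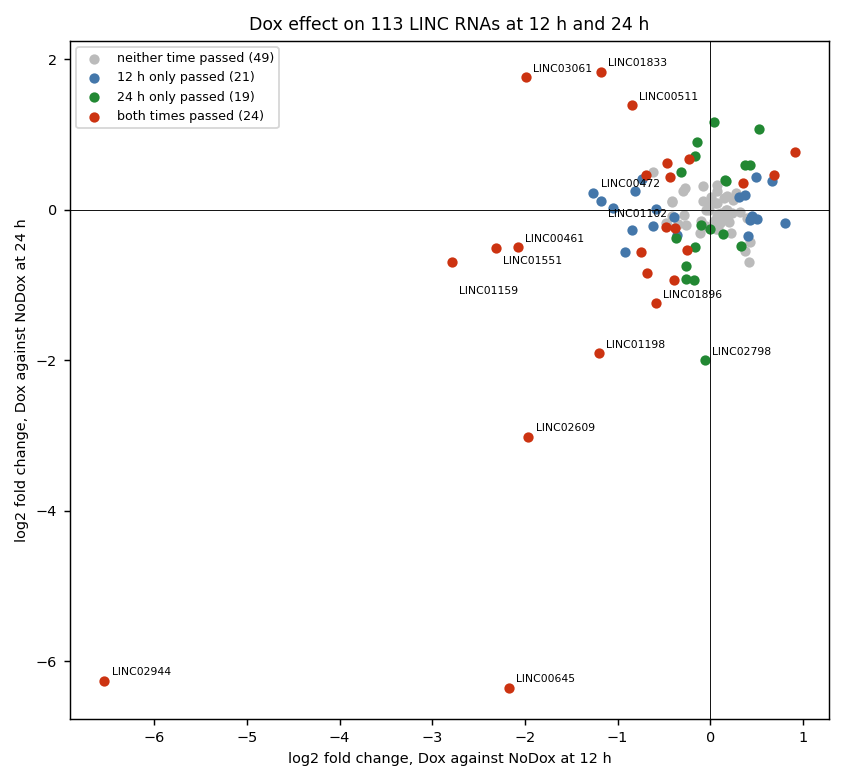
Log2 fold change of Dox against NoDox at 12 h (x axis) and at 24 h (y axis) for the 113 LINC RNAs, 1 point each, coloured by the time at which the test was passed. Of these, 24 passed at both times, and LINC01833, LINC03061 and LINC00511 sit at the upper left, lower at 12 h and higher at 24 h.

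At 48 h fewer LINC RNAs differed, and those furthest down were LINC02944, LINC02609 and LINC00645. LINC01551 and LINC00461 were back among the NoDox libraries, at 346, 334 and 325 against 321, 328 and 319 CPM and 257, 283 and 274 against 275, 261 and 264 CPM, with no effect called (adjusted p = 0.545 and 0.921). Of 113 members, 13 were higher and 14 lower, 23.9% in all, against 18.2% of all features tested (9.23% higher and 8.94% lower) and 22.6% of those with the same minimum mean. The members' median log2 fold change was 0.06. With library totals it was -0.02, and calls over all features were 1017 higher and 2835 lower, against 1814 and 1757 with TMM.

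LINC02944 had 8.23, 7.35 and 7.17 CPM in NoDox and 1.81, 1.22 and 1.39 CPM in Dox (-2.36 ± 0.22, adjusted p = 4.81e-09). LINC02609 had 14.4, 12.8 and 11.6 against 4.82, 4.99 and 3.45 CPM (-1.54 ± 0.22, adjusted p = 2.26e-05). LINC00645 had 7.54, 5.82 and 5.75 against 2.14, 1.70 and 2.85 CPM (-1.52 ± 0.24, adjusted p = 3.59e-05). In these RNAs every Dox library stayed below every NoDox library. LINC01159 (-0.59 ± 0.11) and LINC01198 (-0.94 ± 0.09) complete the 5 members that were lower at all 3 times, and no member was higher at all 3. LINC00910, whose window holds TAATTA, fell to 4.66, 6.74 and 7.58 from 9.72, 15.0 and 15.3 CPM (-1.08 ± 0.21, adjusted p = 0.000774). LINC03053, at 1.75, 1.33 and 2.30 against 0.658, 0.902 and 1.27 CPM, passed narrowly (-0.93 ± 0.32, adjusted p = 0.0398) and lost the call without NoDox replicate 1 or 3 or Dox replicate 1 or 2 (adjusted p = 0.0679 to 0.197).

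The called rises at 48 h had log2 fold changes under 1. The largest was that of LINC01341, with 0.531, 0.613 and 1.10 CPM in NoDox and 1.53, 0.849 and 2.00 CPM in Dox, which overlap (0.94 ± 0.31, adjusted p = 0.0294). Its call held in 8 of 13 alternatives, over which the value ran from 0.654 to 1.33, and was lost without NoDox replicate 1 or 2 or Dox replicate 1 or 3 (adjusted p = 0.0989 to 0.206). LINC02762 had 6.53, 5.52 and 3.82 CPM in NoDox and 9.48, 7.32 and 8.79 CPM in Dox (0.69 ± 0.18, adjusted p = 0.00649), and lost the call without NoDox replicate 3 (adjusted p = 0.0656). LINC03077 had 21.7, 17.9 and 19.9 against 32.0, 25.5 and 28.4 CPM (0.53 ± 0.11, adjusted p = 0.000605). It had been called lower at 12 h (-1.05), as had LINC00511 (0.62 ± 0.15 at 48 h). LINC02575 rose by 0.59 ± 0.14. LINC00938, shown above for its TAATTA, rose from 62.2, 56.3 and 56.3 to 78.6, 67.2 and 70.1 CPM (0.31 ± 0.08, adjusted p = 0.00695, held in 12 of 13 alternatives, where the highest was 0.0842) after being called lower at 12 h (-0.38) and, in 10 of 13 alternatives, at 24 h (-0.24). LINC01278, also shown above, had 50.2, 50.2 and 51.9 against 60.8, 62.2 and 70.2 CPM (0.34 ± 0.09, adjusted p = 0.00645), not called without Dox replicate 3 (adjusted p = 0.0647), and had been lower at 12 h (-0.39). LINC03073 (adjusted p = 0.0302) and LINC01876 (adjusted p = 0.0400) passed narrowly. LINC03073 lost the call without any 1 of the 6 libraries (adjusted p = 0.0521 to 0.108), and LINC01876 without any but NoDox replicate 1 (adjusted p = 0.055 to 0.211). Counts at 48 h were the least stable: higher calls numbered 7 without NoDox replicate 2, 6 without NoDox replicate 3, and 5, 8 and 6 without Dox replicates 1, 2 and 3, and lower calls numbered 8 without Dox replicate 1.

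The difference between the Dox effects at 2 times was itself tested. Between 12 h and 24 h the effect moved up for 23 members and down for 19, 37.2% in all, against 30.9% of all features tested (16.1% up and 14.8% down). Among features with the same minimum mean 37% were called (20.1% up and 16.9% down), near the members' share. With library totals the median over all features was -0.21 and over the members -0.19, and the calls were 1914 up and 5719 down, against 3157 and 2917 with TMM. LINC03061 moved up by 3.75 ± 0.35, LINC01833 by 3.01 ± 0.22 and LINC00511 by 2.23 ± 0.19 in log2. LINC01551 (up by 1.8 ± 0.08), LINC00461 (up by 1.58 ± 0.18), LINC01159 (up by 2.10 ± 0.17) and LINC00472 (up by 1.49 ± 0.15) also moved up, so their smaller effect at 24 h was beyond the spread between libraries. LINC02798 moved by -1.94 ± 0.32. For LINC02944 the difference was 0.28 ± 0.79 and did not pass (adjusted p = 0.825). Without 12 h Dox replicate 2 the downward calls numbered 9.

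Between 24 h and 48 h the effect moved up for 22 members and down for 14, 31.9% in all, against 25.8% of all features tested (12.7% up and 13.1% down). Among features with the same minimum mean 31.7% were called (15.7% up and 16.1% down), near the members' share. With library totals all features gave 1886 up and 3190 down, against 2491 and 2573. LINC02944 moved up by 3.90 ± 0.48 and LINC02609 by 1.47 ± 0.37, toward the NoDox level. LINC03061 moved by -2.64 ± 0.31, and at 48 h it was again under NoDox (-0.88 ± 0.22). LINC01833 moved by -1.64 ± 0.22 and LINC00683 by -1.88 ± 0.35. Over the 3 Dox effects, 72 members (63.7%) were called at 1 time or more, against 60.3% of all features tested and 68.1% of those with the same minimum mean. At all 3 times 10 were called (8.85%, against 5.41% and 6.79%), and 41 at none. Calls in opposite directions at different times were made for 13 (11.5%, against 10.2% and 13.2%).

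**Figure D3:**
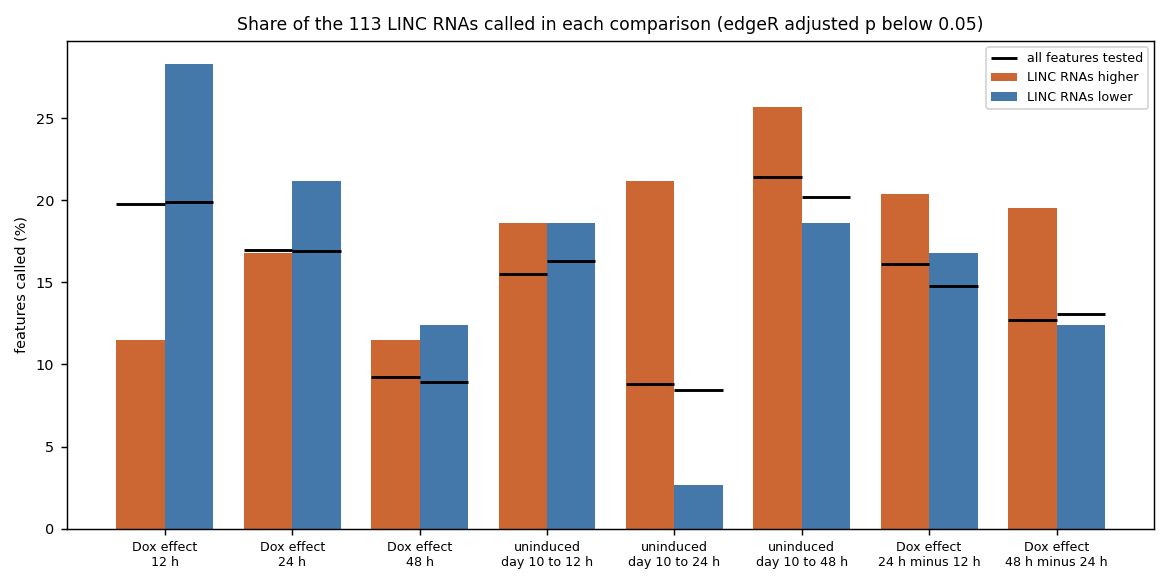
Share of the 113 LINC RNAs called higher (orange) and lower (blue) in each of the 8 comparisons, in percent on the y axis from 0; black lines give the share over all 19655 features tested. The largest gaps to the lines are the 28.3% lower at 12 h of Dox and the 21.2% higher from day 10 to 24 h.

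The LINC RNAs also changed without doxycycline. LINC01963 and LINC00963 rose within 12 h of day 10, and LINC00115, LINC01004 and LINC03061 rose by 48 h. These 3 comparisons share the day 10 libraries, so their values are given side by side. From day 10 to 12 h, 21 members rose and 21 fell, 37.2% in all, against 31.8% of all features tested (15.5% higher and 16.3% lower). To 24 h, 24 rose and 3 fell, 23.9% against 17.3%, and all features were close to even there, with 8.84% higher and 8.47% lower. To 48 h, 29 rose and 21 fell, 44.2% against 41.7% (21.4% higher and 20.2% lower). Among features with the same minimum mean, 38.5% were called to 12 h, 21.1% to 24 h (10.3% higher and 10.8% lower) and 49.4% to 48 h. The members' medians were -0.04, 0.14 and 0.03. With library totals the median to 48 h was -0.05, and all features gave 3176 higher and 5174 lower, against 4215 and 3973.

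LINC01963 had 5.14, 6.21 and 7.87 CPM at day 10 and 18.9, 19.6 and 18.1 CPM at 12 h without doxycycline. It then had 11.7, 11.5 and 14 CPM at 24 h and 3.35, 2.30 and 2.62 CPM at 48 h. The 12 h libraries were the highest, and the 48 h libraries were all under the day 10 ones. Its log2 changes from day 10 were 1.53 ± 0.14, 0.93 ± 0.14 and -1.24 ± 0.18 (adjusted p = 2.94e-09, 3.60e-05 and 2.92e-06). LINC00963 went from 19.7, 21.2 and 21.3 to 42.5, 42.5 and 45.0 CPM at 12 h (1.06 ± 0.07, adjusted p = 1.51e-11) and was at 26.9, 25.7 and 26.3 CPM at 48 h. LINC00641 had a like course, with 0.75 ± 0.11 at 12 h, 0.38 ± 0.11 at 24 h (held in 10 of 13 alternatives, with a highest adjusted p of 0.132) and -0.24 at 48 h, the last not called. LINC00174 (0.85 ± 0.14) and LINC01341 (1.00 ± 0.22) also rose to 12 h, and LINC02762 (0.75 ± 0.20) and LINC02175 (0.72 ± 0.15) to 24 h.

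The largest rises from day 10 to 48 h were those of LINC03061, LINC00115, LINC02609 and LINC01004. At 24 h LINC01004 was already called higher in 13 of 13 alternatives, LINC00115 in 11 and LINC02609 in 9 (highest adjusted p = 0.00957, 0.0969 and 0.205). LINC00115 had 3.52, 2.33 and 2.87 CPM at day 10 and 8.34, 9.70 and 8.74 CPM at 48 h (1.64 ± 0.18, adjusted p = 4.08e-08), and shares 574 nearly identical bases with another gene. LINC01004 had 7.12, 8.45 and 9.06 and 18.4, 18.2 and 18.2 CPM (1.14 ± 0.12, adjusted p = 2.71e-08). LINC03061 rose by 1.73 ± 0.23 and LINC02609 by 1.33 ± 0.22. In these the 48 h libraries were all above the day 10 libraries. LINC00963 (0.34 ± 0.08) and LINC02762 (1.10 ± 0.20) were also still higher than at day 10. LINC00632, the third most abundant member, whose locus also gives the circular RNA CDR1as (not measured here), rose by 0.99 ± 0.12 to 128 ± 8.26 CPM and had no called Dox effect at any time. The miR-30 host LINC00472 rose by 0.95 ± 0.10.

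Falls without doxycycline included LINC00404, beside SOX1, which changed by -0.28, -0.69 and -1.20 in log2 at the 3 times and passed at each, at 12 h in 9 of 13 alternatives (highest adjusted p = 0.183). LINC00645 changed by -1.24 ± 0.27 at 12 h and was higher than at day 10 by 0.98 ± 0.22 at 48 h. LINC00173 (-1.05 ± 0.17), LINC02253 (-0.93 ± 0.24) and LINC00910 (-0.88 ± 0.18) were lower at 12 h. The 3 members lower at 24 h were LINC00404, LINC00511 (-0.74 ± 0.14) and LINC01198 (-0.58 ± 0.08). At 48 h LINC01341 (-1.30 ± 0.29), LINC01234 (-1.23 ± 0.25) and LINC03053 (-1.21 ± 0.25) were lower, and so was LINC01963. The exons of LINC01341 overlap KIF28P on the other strand over 20.1% of its length. Without day 10 replicate 1, the library that stood apart, 20 members rose and 17 fell at 12 h, 21 and 3 at 24 h, and 29 and 27 at 48 h.

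**Figure D4:**
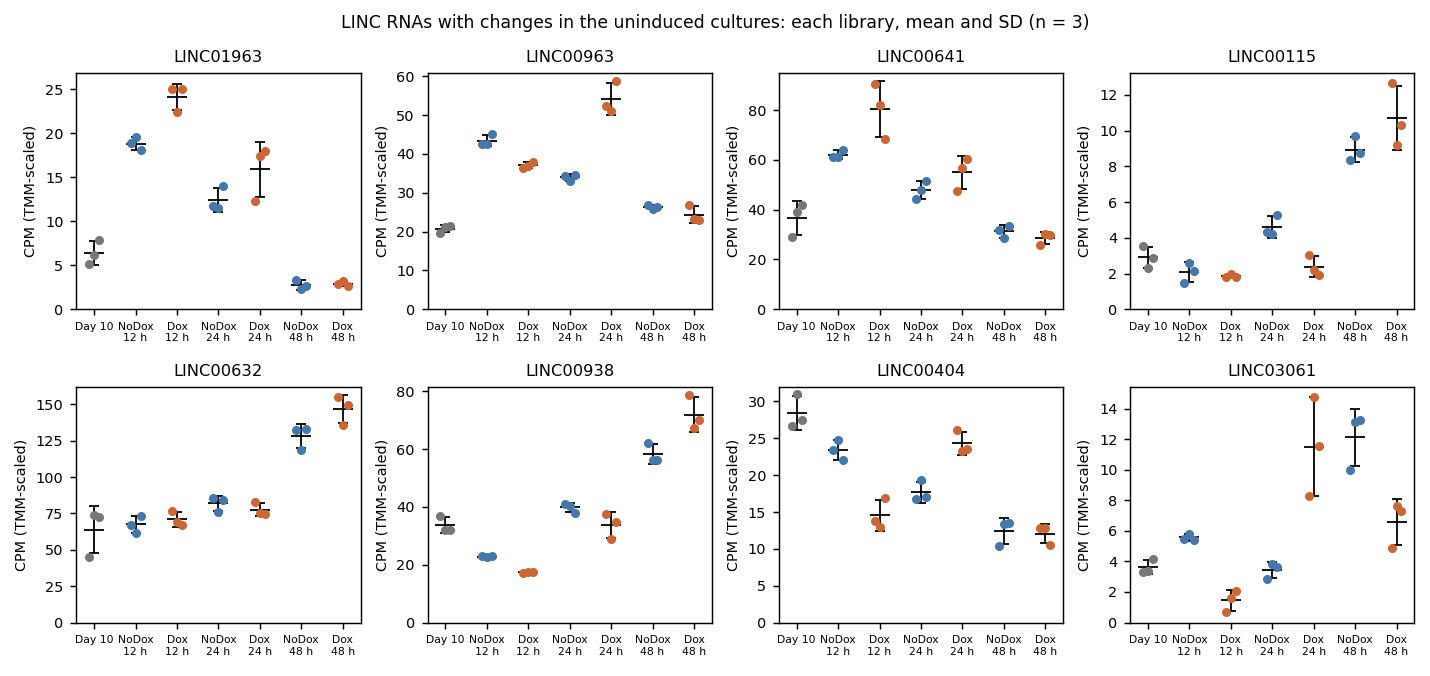
TMM-scaled CPM (y axis, linear from 0) in each of the 21 libraries for 8 LINC RNAs, by group on the x axis; points are libraries (grey day 10, blue NoDox, orange Dox), horizontal bars the mean and vertical bars the SD (n = 3). LINC01963, LINC00963 and LINC00641 are higher at 12 h than at day 10 without doxycycline, LINC00115, LINC00632 and LINC00938 are highest at 48 h, and LINC00404 falls with time.

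The members lie on 22 chromosomes, and 98 of the 113 are within 100 kb of a tested protein-coding gene, 19 of them overlapping it. There are 109 such nearest genes, some shared by neighbouring members. Over 112 of the pairs the nearest gene was called in 56 at 12 h of Dox (50%). At 24 h it was called in 47 (42.0%) and at 48 h in 16 (14.3%). Of all features tested, 39.7%, 33.9% and 18.2% were called at these times. With the same minimum mean the shares were 44.4%, 39.3% and 22.6%. The LINC RNAs of these pairs were called in 44, 42 and 27. At 12 h of Dox both partners were called in 24 of 112 pairs, with the same direction in 18, of which 16 were lower, and opposite directions in 6. At 24 h both were called in 22 pairs, 19 of them in the same direction, 9 lower and 10 higher. At 48 h both were called in 4 pairs, all in the same direction. With so many features called, some joint calls arise without any link, and whether these counts exceed that was not tested. The log2 fold changes of the pairs had Pearson's r of 0.218 at 12 h and 0.32 at 24 h and Spearman's rho of 0.154 and 0.437 (112 pairs). These are descriptions across genes, which are not independent replicates and share libraries and, for overlapping pairs, possibly reads.

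In these 112 pairs, both partners fell by more than 1 in log2 at 12 h at the genes of 3 transcription factors: LINC02609 with BARHL2, LINC01159 and LINC01102 with POU3F3, and LINC01833 with SIX3. BARHL2 had 4 reads in the Dox and 60 in the NoDox libraries at 12 h, a ratio of 17.2 with an exact 95% interval of 6.37 to 65.1 for counting error. LINC01876 (-0.69 ± 0.20 at 12 h) lies 69.5 kb from NR4A2, a nuclear receptor gene, which changed by -2.85 ± 0.23. LINC00404 (-0.69 ± 0.11 at 12 h) lies 33.6 kb from SOX1, a neural progenitor factor, which changed by -1.31 ± 0.06. At 24 h LINC00404 was higher (0.46 ± 0.10), and SOX1 was at -0.09 ± 0.06 (adjusted p = 0.246).

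Other pairs parted, and these were chosen after their values were seen. EOMES, the gene of a T-box factor of cortical intermediate progenitors, went from 67.9 ± 13.1 to 1.5 ± 0.224 CPM at 12 h (-5.47 ± 0.17), while LINC01980, 74.8 kb away, had -0.26 ± 0.15 and no call (adjusted p = 0.169). HES6, a bHLH gene of the neurogenic programme, changed by -2.14 ± 0.07, while LINC02610, 6.55 kb away on the same strand, had 0.19 ± 0.20 (adjusted p = 0.485). SOX3, a factor of neural progenitors, changed by -1.61 ± 0.17, and LINC00632, 204 kb away, had 0.07 ± 0.12 (adjusted p = 0.691). LINC03061 and MYO16, 61.6 kb apart, were both called lower at 12 h (MYO16 not without NoDox replicate 1, adjusted p = 0.108) and went opposite ways at 24 h, by 1.76 ± 0.22 and -2.0 ± 0.23.

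**Figure D5:**
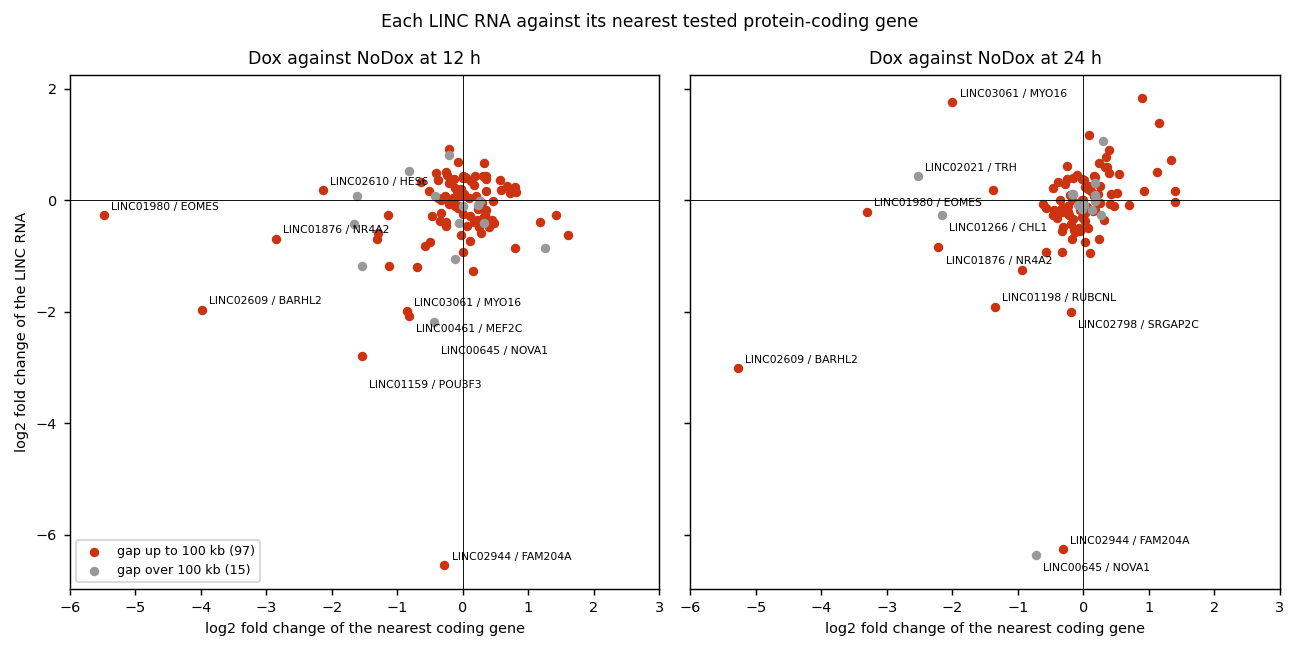
Log2 fold change of Dox against NoDox of each LINC RNA (y axis) against that of its nearest tested protein-coding gene (x axis) at 12 h (left) and 24 h (right), 112 pairs; red points have a gap of up to 100 kb and grey points a larger one. LINC02609 with BARHL2 is low on both axes, LINC02944 with FAM204A is low on the y axis alone, and LINC01980 with EOMES is low on the x axis alone.

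Of the 5 members that contain a microRNA gene, LINC00461 and LINC00472 were lower at 12 h. Neither had a called effect at 48 h, where LINC00472 had 35.5, 43.9 and 39.4 CPM in NoDox and 39.9, 43.3 and 40.2 CPM in Dox. LINC01618 (MIR4449) had no called effect at 12 h (-0.16 ± 0.14) and rose at 24 h (0.72 ± 0.14, adjusted p = 0.000111), and 32.1% of its length is shared with RASL11B on the same strand. LINC01138 (MIR5087) rose at 24 h (0.60 ± 0.16, adjusted p = 0.00456, held in 12 of 13 alternatives, where the highest was 0.0598), with 358 nearly identical bases in another gene. LINC00960 (MIR4273) was called in none of the 8 comparisons.

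LINC02210 and LINC00205, also among the 5 most abundant members, had no called effect at 12 h of Dox. LINC02210, with 476 nearly identical bases in KANSL1, had 58.1, 59.3 and 62.3 CPM in NoDox and 57.2, 63.7 and 58.3 CPM in Dox, which overlap (adjusted p = 0.964). LINC00205 had 73.0, 71.4 and 71.4 against 90.0, 85.5 and 65.7 CPM (0.16 ± 0.08, adjusted p = 0.103), and rose at 24 h (0.40 ± 0.08, adjusted p = 0.000225). In all, 15 of the 113 members (13.3%) were called in none of the 8 comparisons, against 21% of all features tested and 12.7% of those with the same minimum mean. For 17 of the 110 members with transcripts in GENCODE 29, at least 300 bases with at least 97% identity occur in another gene, and 57 members share exon bases with another feature, 13 of them over more than 20% of their length. Whether the counting used strand is not given in the sources used here, so reads from overlapping features may be shared.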

How the data were processed

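RNA was measured in 21 libraries of 7 groups, taken from the labels. The deposited values are whole read counts per feature on hg38, and the submitters' processing notes name STAR 2.7.9 and Subread 2.0.3 among the authors' tools. The sources used here do not give the annotation or the strand option of the counting. The library kit is directional per the labels' protocols. The authors also deposited a signal table of normalized counts. Its values are the counts over 1 factor per sample, and the features kept are those that reach 10 counts in 3 or more samples, and the notes also name DESeq2 without a version. That table set the membership and served in 1 alternative, where 1 was added to each deposited value before taking log2.

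The tests were edgeR's quasi-likelihood F tests (edgeR 4.0.16 in R 4.3.3) with robust fitting, TMM scaling and filterByExpr (19655 features, all 113 members among them), with all 7 groups in the fit and 14 residual degrees of freedom. Benjamini-Hochberg adjustment covered all features tested, and a feature was called at adjusted p below 0.05 in 8 comparisons. For a log2 fold change, ± gives an approximate standard error, the absolute value divided by the square root of F. CPM values are scaled by TMM. The procedure was tested on simulated data for the 12 h Dox effect only, with the same spread set for every feature. Of 100 features changed by 1 in log2 it recovered 96%, and of 100 changed by 2 it recovered 100%. It also called 16 unchanged features among the 19033 tested there.

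The members, lists and tests were chosen with earlier results of these data known. Members named are the 5 most abundant, the 6 largest called rises and 6 falls of each Dox effect and the 4 and 4 of each uninduced change whose replicates lay wholly apart, the 3 and 3 of each difference, those at the edge of the minimum, microRNA hosts, and their nearest coding genes. Other members are added to account for all of them. Alternatives were DESeq2 size factors, library totals only, no filter, DESeq2 1.42.0, limma 3.58.1 on the deposited normalized values, a fit of the compared groups alone, a replicate block, other minimum means and each replicate left out. Neighbours came from the spans in the count table, and near-identical copies from GENCODE 29 transcripts. The comparison with nearest coding genes leaves out 1 pair, which is not reported here.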

Additional observations from a re-analysis of the deposited data

Results flagged for a closer look

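The Dox effect of 8 members differed between 2 times by the edgeR test of the difference itself, among the largest differences in each direction. Between 12 h and 24 h the effect rose by 3.75 ± 0.35 for LINC03061 (adjusted p = 1.50e-08), by 3.01 ± 0.22 for LINC01833 (4.02e-09) and by 2.23 ± 0.19 for LINC00511 (2.84e-10) in log2. These RNAs had called effects of opposite sign at the 2 times. It was -4.18 ± 0.81 for LINC00645 (adjusted p = 0.000182), which had 3 reads in the 24 h Dox libraries (-7.26 without 24 h Dox replicate 1, the library that holds these reads), and -1.94 ± 0.32 for LINC02798 (1.95e-05). For LINC02381 it was -1.12 ± 0.42 (adjusted p = 0.0415), a call that held in 11 of 19 alternative analyses (without 1 library the adjusted p reached 0.123, without 24 h Dox replicate 2), and neither Dox effect of this RNA was called.

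Between 24 h and 48 h the effect rose by 4.83 ± 0.63 for LINC00645 (adjusted p = 1.30e-06; 7.91 without 24 h Dox replicate 1), by 3.90 ± 0.48 for LINC02944 (5.30e-07) and by 2.45 ± 0.30 for LINC02798 (6.42e-07). LINC02798 was lower than NoDox at 24 h alone. The effect was -2.64 ± 0.31 for LINC03061 (adjusted p = 1.08e-06), -1.88 ± 0.35 for LINC00683 (0.000169) and -1.64 ± 0.22 for LINC01833 (2.34e-05). LINC03061 went from lower at 12 h to higher at 24 h and lower at 48 h. The differences share the 24 h libraries.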

How the results depend on the processing

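Of the calls on members, 31 of 45 at 12 h of Dox, 30 of 43 at 24 h and 11 of 27 at 48 h held under every alternative tried; for the uninduced changes it was 28 of 42, 14 of 27 and 38 of 50, and for the differences 29 of 42 and 25 of 36. With library totals in place of TMM, 32 members were higher at 12 h (13 with TMM), 7 at 48 h (13), and 30 moved down between 12 h and 24 h (19). With no filter 7 were higher at 48 h, and with the deposited normalized values 8 were higher at 12 h. At a minimum mean of 25 (174 members), 32 rose and 5 fell in the uninduced change to 12 h and 24 h respectively, and 35 fell to 48 h. At a minimum mean of 100 (68 members), 6 were higher at 12 h, 12 moved down between 12 h and 24 h, and 19 rose to 48 h without doxycycline. These sets differ in size from the main set. Their counts can therefore differ at an unchanged share of members called, and do not show that the calls depend on the minimum. Leaving out each replicate gave 8 to 14 higher calls at 12 h, 5 to 11 higher and 8 to 13 lower at 48 h, and 9 to 18 downward between 12 h and 24 h. The uncalled LINC02210 changed sign at 12 h, to 0.17 with library totals, and ranged from -0.065 to 0.023 as each replicate was left out, and LINC01618 changed to 0.016 with library totals; the cause was not tested for any of these. Replicate numbers were not treated as pairs. Residuals of same-numbered Dox and NoDox libraries correlated at -0.05 to 0.08 at 12 h, 0.05 to 0.13 at 24 h and 0.04 to 0.15 at 48 h. For the uninduced changes it was -0.05 to 0.16. Libraries that correlated best with their own number were 3 of 6 at 12 h, 6 of 6 at 24 h and 5 of 6 at 48 h. For the uninduced changes they were 5 of 6 to 12 h, 4 of 6 to 24 h and 2 of 6 to 48 h. With a replicate block the counts of higher and lower members were 13 and 34 at 12 h, 21 and 27 at 24 h and 13 and 13 at 48 h, and for the uninduced changes 22 and 22, 25 and 3, and 28 and 22. Members near 50 normalized counts have few reads per library, and 3 libraries a group limit small changes.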
